A study of Mus musculus with 15 samples.

Results

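The ADAM genes of the mouse testis are described here by cell stage and by treatment group. Members were all genes of the feature tables whose symbol is Adam followed by digits and at most 1 letter, which leaves out the Adamts, Adamtsl and Adamdec genes, and 33 of the 32285 genes met this rule. The members were chosen by name and not by a measured value. From what is known of where each gene is made, 21 were placed in a testis list (Adam1a, Adam1b, Adam2, Adam3, Adam4, Adam5, Adam6a, Adam6b, Adam7, Adam18, Adam20, Adam21, Adam24, Adam25, Adam26a, Adam26b, Adam29, Adam30, Adam32, Adam34 and Adam39) and 12 in a widely expressed list (Adam8, Adam9, Adam10, Adam11, Adam12, Adam15, Adam17, Adam19, Adam22, Adam23, Adam28 and Adam33).

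ADAM proteins are membrane-anchored proteins that carry a metalloprotease domain and a disintegrin domain. Those that keep a working zinc site in the protease domain, such as ADAM10 and ADAM17, cut other membrane proteins at the cell surface and release their outer part, as in Notch signalling and the shedding of TNF. Many members made by male germ cells have lost that site and act on the sperm surface in migration through the oviduct and in contact with the egg, where ADAM3 has a central part and is folded and sorted with the help of other members and of chaperones of the endoplasmic reticulum.

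Single-cell RNA libraries were made from 1 testis of each of 15 DBA/2J male mice, 3 per group. JQ1, a small molecule that binds the bromodomains of the BET proteins, including the testis protein BRDT, was injected intraperitoneally at 50 mg/kg daily for 3 weeks. Group T was taken right after dosing at 10 weeks of age and group R was taken 6 weeks after the last dose at 16 weeks of age. Their vehicle controls, VC-T (10 weeks) and VC-R (16 weeks), received DMSO in a cyclodextrin solution on the same schedule, and the untreated controls, UC, were 15 weeks old and were not injected. JQ1, injection and age therefore cannot be told apart in a comparison of T with UC, and R with UC differs in injection and by 1 week of age as well. Comparisons with T and with R share the same 3 UC libraries.

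The annotation of build GRCm38 places 12 of the 21 testis members on chromosome 8, in 3 stretches, with Adam29 (chr8:55870912-55906948) apart from them. Adam18, Adam3, Adam5 and Adam32 lie next to each other from chr8:24602246 to chr8:24948804, directly before the widely expressed Adam9 (chr8:24949611-25016927). Adam24, Adam25, Adam20 and Adam39 follow from chr8:40675077 to chr8:40827037, and Adam26b, Adam26a and Adam34 from chr8:43519762 to chr8:43710049. Adam4 (chr12:81419443-81421946), Adam21 (chr12:81558584-81568474), Adam6b (chr12:113489511-113492057) and Adam6a (chr12:113543908-113546465) lie on chromosome 12, the last pair within the immunoglobulin heavy chain locus. The coding sequence lies in a single exon in 15 of the 21 testis members and in 0 of the 12 widely expressed members.

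The zinc-binding motif of the metalloprotease active site has 5 fixed residues. Searched in the reading frame of the longest coding sequence, on the coding strand, it was found in 9 of the 12 widely expressed members (not in Adam11, Adam22 and Adam23, which are known as neural members without protease activity) and in 11 of the 21 testis members. It was found in 68 of all 21866 protein-coding genes (0.311%). The coding stretch at this site is printed for an intact sheddase, for intact testis members, and for the members that the stage and treatment results turn on. Capitals mark the codons of the fixed residues that are kept, and for members without the motif the stretch is the one aligned with the closest intact member. All are exonic and read 5′ to 3′ on the gene's own strand.
Adam17 (chr12:21336732-21336764, minus strand): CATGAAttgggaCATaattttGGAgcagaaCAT
Adam24 (chr8:40680518-40680550, plus strand): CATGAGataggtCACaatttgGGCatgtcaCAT
Adam26b (chr8:43520947-43520979, minus strand): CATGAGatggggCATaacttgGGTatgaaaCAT
Adam1a (chr5:121520089-121520121, minus strand): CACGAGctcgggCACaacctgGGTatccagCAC
Adam29 (chr8:55872374-55872406, minus strand): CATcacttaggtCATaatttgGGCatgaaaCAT
Adam4 (chr12:81420763-81420795, minus strand): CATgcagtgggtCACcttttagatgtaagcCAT
Adam6a (chr12:113545050-113545082, plus strand): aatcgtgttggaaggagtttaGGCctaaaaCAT
Adam6b (chr12:113490606-113490638, plus strand): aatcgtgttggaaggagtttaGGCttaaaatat
Adam2 (chr14:66053841-66053873, minus strand): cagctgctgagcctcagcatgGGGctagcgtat
Adam3 (chr8:24707418-24707450, minus strand): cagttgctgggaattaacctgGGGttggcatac
Adam17, Adam24, Adam26b and Adam1a keep all 5 fixed codons, Adam29 keeps 4 and Adam4 keeps 3. Adam6a keeps 2, and Adam6b, Adam2 and Adam3 keep 1, as do Adam5, Adam18 and Adam32. Some members are close copies of each other, and reads that map equally well to both copies would not be counted, so their levels are uncertain. Adam26a and Adam26b are identical at 95.1% of 2082 aligned coding bases, Adam6a and Adam6b at 94.9% of 2262, Adam1a and Adam1b at 86.1% of 2229, and Adam24 and Adam25 at 75.6% of 2131.

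The libraries held 9673587 to 98724982 unique molecular identifiers (UMIs, 1 per captured RNA molecule), and 72362 cells were kept, with 2454.5 to 4213.0 UMIs per cell at the median of a library. Clusters were named from fixed markers and gave 23193 spermatozoa-like and 19870 spermatid-like cells, 16441 spermatocyte-like cells and 2691 spermatogonia-like cells, and 9185 cells stayed unnamed. Spermatozoa-like cells numbered 5617 in UC, 9244 in R and 5 in T. The library VC-T 1 stood apart from its group and held 0 spermatozoa-like cells. The study also left it out of its tests of expression, and its values are given, but it is not among the 8 control libraries (UC 1 to 3, VC-T 2 and 3, VC-R 1 to 3). Any pair of libraries shared at most 0.548% of its cell barcodes.

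Levels are given in CPM, the UMIs of a gene per 1000000 UMIs of the same cell class in a library, with the standard deviation over libraries. Each molecule is counted once at its 3′ end, so values were not divided by gene length. Levels by stage in the controls are descriptions without a test. The 21 testis members summed to 2323 ± 84.4 CPM in spermatocyte-like cells, 2115 ± 72.4 in spermatid-like cells and 949 ± 87.3 in spermatozoa-like cells, against 291 ± 101 in spermatogonia-like cells (n = 8 libraries each). The 12 widely expressed members summed to 232 ± 36.5 CPM in spermatogonia-like cells and to 43.0 ± 4.33, 25.7 ± 4.83 and 3.33 ± 0.525 in the 3 later classes. Along the germ line the sum of the testis members was thus lowest, and that of the widely expressed members highest, in spermatogonia-like cells, as the heat map of levels by class shows.

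**Figure D1:**
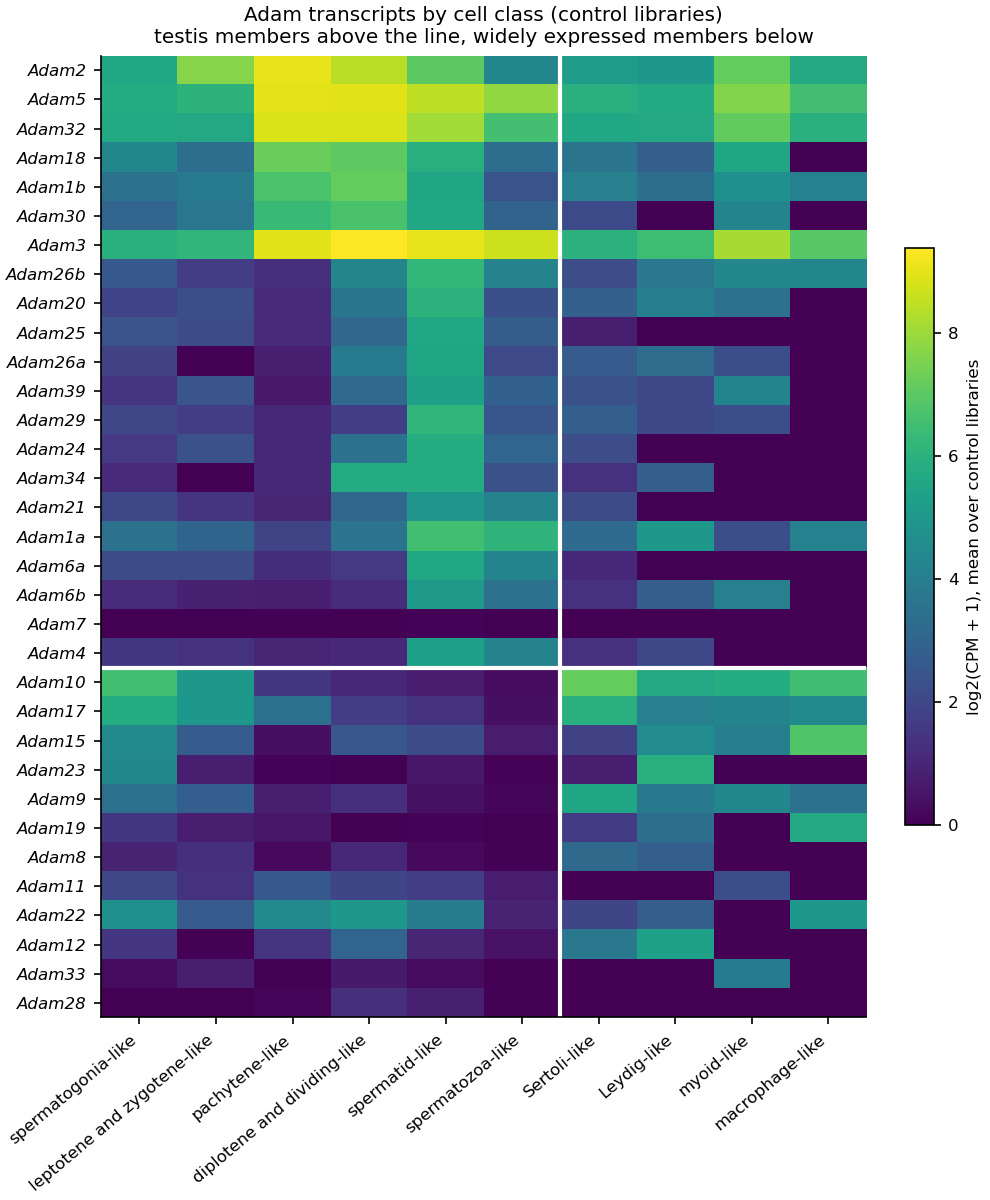
Mean level of the 33 ADAM genes in the control libraries, as log2(CPM + 1), by cell class. Testis members are above the line and widely expressed members below it. The sum of the testis members was highest in spermatocyte-like cells (2323 CPM) and the germ-line level of the widely expressed members was highest in spermatogonia-like cells (232 CPM).

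To resolve the stages, germ cells were ordered by diffusion pseudotime, computed without any ADAM gene, and split into 17 windows of equal cell number. The 20 testis members that reached 1 CPM were split by the window of their highest mean level over the 8 control libraries into 3 groups. The early group, 7 members, peaked in windows 4 to 6, the spermatid group, 9 members, in windows 8 and 9, and the late spermatid group, Adam1a, Adam4, Adam6a and Adam6b, in windows 10 and 11. The 3 groups differed in gene structure and active site. All 9 members of the spermatid group and all 4 of the late spermatid group have 1 coding exon, as do 2 of the 7 in the early group, and the motif is intact in 8, 1 and 2 of them. The groups were formed from these levels, and no test was made of these counts.

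The early group held the members with the largest counts. Adam2, which encodes the beta subunit of fertilin, peaked in window 4 at 542 ± 24.4 CPM (n = 8) and Adam5 in the same window at 531 ± 28.0. Adam32 followed in window 5 at 514 ± 41.2 CPM, with Adam18 at 178 ± 21.8, Adam1b, the fertilin alpha gene that gives the sperm surface form, at 126 ± 24.8 and Adam30 at 107 ± 7.44. Adam3 came last of the group, in window 6, at 706 ± 40.2 CPM, and that window held 2816 spermatid-like and 843 spermatocyte-like cells over all libraries. These windows are those of the mean over libraries. In single libraries the peak ran from window 2 to 5 for Adam2 and 2 to 6 for Adam5. It ran from 3 to 5 for Adam18, 3 to 6 for Adam1b and 6 to 7 for Adam3, so the order of the earlier members is uncertain. The members of the group also left the germ line at different rates. In spermatozoa-like cells Adam3 was still at 403 ± 45.2 CPM and Adam5 at 229.7 ± 24.2, while Adam2 was at 18.7 ± 3.23 and Adam1b at 4.35 ± 1.86. Adam2 had the highest level of the group early on, since in leptotene and zygotene-like cells it was at 204 ± 45.3 CPM when Adam3 was at 71.5 ± 36.6 and Adam5 at 66.3 ± 28.2.

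The spermatid group holds the testases, proteases made in the testis that keep the active site. Adam26b peaked in window 8 at 117 ± 11.8 CPM, Adam20 at 109 ± 6.11, Adam25 at 73.0 ± 15.0, Adam26a at 70.6 ± 8.58 and Adam39 at 59.4 ± 17.8 (n = 8). Adam29, which lacks an intact motif, peaked in window 9 at 117 ± 10.9 CPM, with Adam24 at 81.1 ± 11.7, Adam34 at 72.5 ± 28.4 and Adam21 at 38.3 ± 8.15. Adam34 was already at 54.3 ± 25.5 CPM in diplotene and dividing-like cells, and its peak in single libraries ran from window 6 to 10.

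The late spermatid group had few UMIs before the spermatid stage. In spermatocyte-like cells of the controls Adam1a was at 3.52 ± 1.04 CPM, Adam4 at 0.994 ± 0.386 CPM, Adam6a at 1.35 ± 0.577 and Adam6b at 0.750 ± 0.414. Adam6a peaked in window 10 at 72.4 ± 6.06 CPM and Adam6b at 51.2 ± 4.64, and Adam4 peaked in window 11 at 62.4 ± 10.6. Adam6a and Adam6b are needed for male fertility in mice. Adam1a, whose product works in the endoplasmic reticulum and is needed for ADAM3 to reach the sperm surface, peaked in window 10 at 109.7 ± 13.2 CPM and stayed at 67.7 ± 4.55 in spermatozoa-like cells, the highest level of the group there. Adam1a and Adam1b, neighbours on chromosome 5 with identical active-site stretches, thus had their highest mean levels 5 windows apart. Adam7, known from the epididymis, gave at most 0.121 CPM at the mean of any window and passed no low-count filter.

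**Figure D2:**
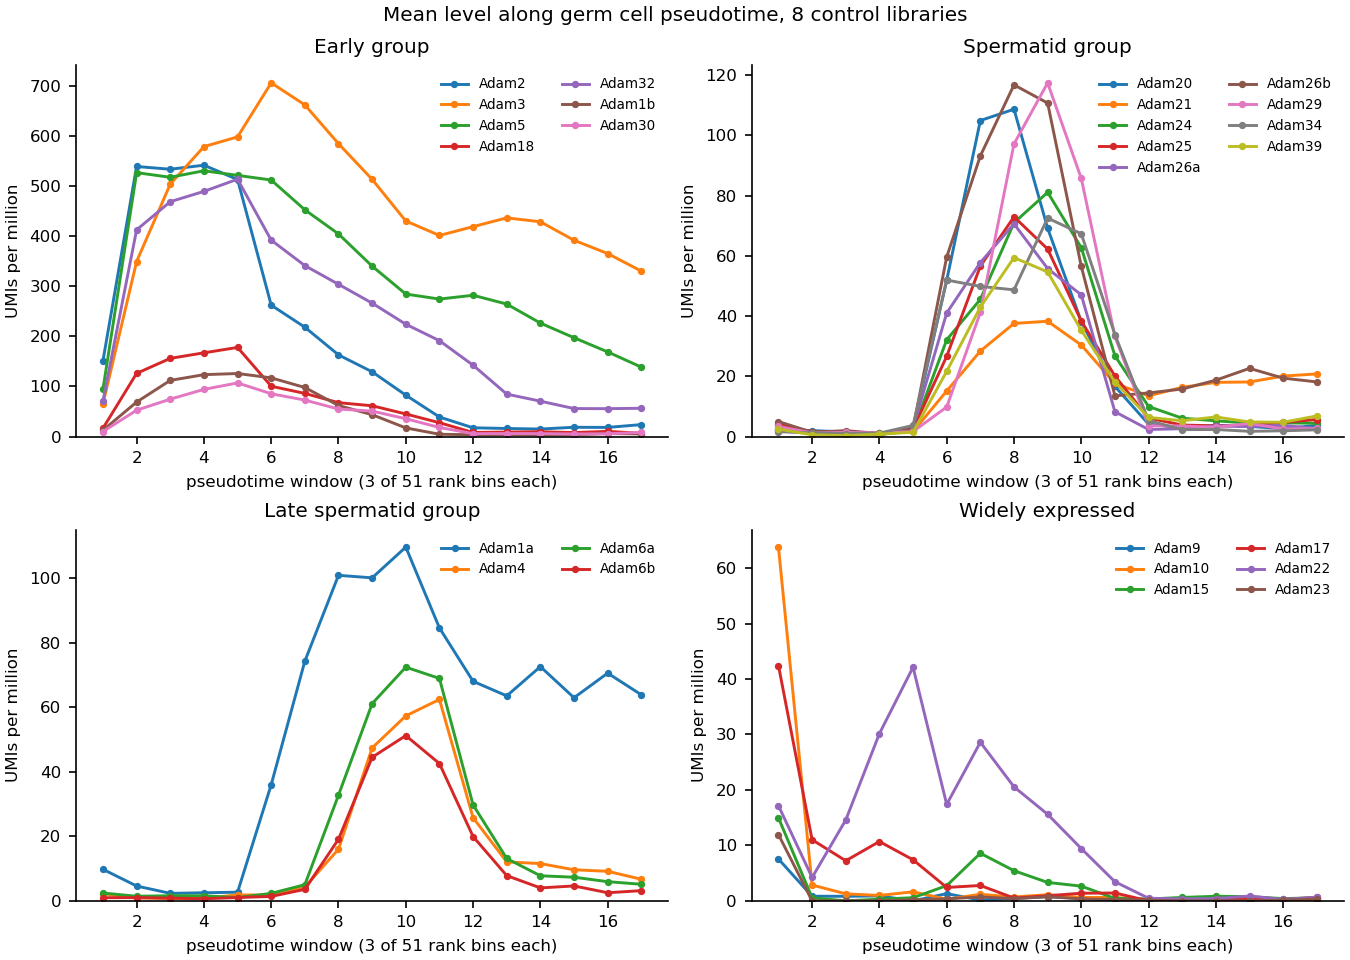
Level in CPM (mean of the 8 control libraries) over 17 windows of germ-cell pseudotime, in 4 panels for the early, spermatid, late spermatid and widely expressed members. The early members peak in windows 4 to 6, the spermatid members in windows 8 and 9, the late spermatid members in windows 10 and 11, and Adam10 and Adam17 in window 1.

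Among the widely expressed members, the sheddase genes Adam10 and Adam17 led in spermatogonia-like cells at 91.9 ± 17.1 and 55.5 ± 15.0 CPM, and stood at 2.72 ± 1.22 and 9.74 ± 2.41 in spermatocyte-like cells (n = 8). In Sertoli-like cells, the somatic cells that surround the germ cells, Adam10 was at 142 ± 33.3 CPM, Adam17 at 58.8 ± 8.29 and Adam9 at 45.1 ± 10.0 (n = 6). Macrophage-like cells held Adam15 at 112 ± 12.6 CPM (n = 3), and Leydig-like cells, which make testosterone, held Adam23 at 57.5 ± 67.3 (n = 4), a spread larger than the mean. Adam22, which encodes a receptor for the secreted protein LGI1 in neurons, had its highest level of 42.1 ± 12.0 CPM in window 5 and was at 17.2 ± 5.53 in window 1. Adam11, Adam12, Adam28 and Adam33 also peaked after window 1, at levels under 10 CPM. Testis members summed to 285 ± 111 CPM in Sertoli-like cells, where the spermatozoa markers, which such cells should lack, summed to 1223 ± 410, and the share of free RNA in these values was not tested.

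In spermatid-like cells, T differed from UC in Adam4, Adam6a and Adam6b, 3 of the 4 members of the late spermatid group. Adam4 was at 42.4, 37.9 and 29.0 CPM in UC and at 18.3, 13.8 and 16.4 in T. Adam6a was at 42.8, 57.5 and 47.3 CPM in UC and at 24.4, 19.6 and 20.3 in T. Adam6b was at 35.0, 39.5 and 29.0 CPM in UC and at 15.9, 13.8 and 16.1 in T. For each gene all 3 T libraries lay below all 3 UC libraries. The fourth member, Adam1a, was at 86.6, 92.1 and 86.4 CPM in UC and 87.1, 87.6 and 88.9 in T, and these overlapped. The log2 fold changes of Adam4, Adam6a and Adam6b were -1.38 ± 0.17 (SE), -1.42 ± 0.15 and -1.41 ± 0.16, with adjusted p = 1.29e-05, 1.87e-06 and 4.44e-06 in edgeR's quasi-likelihood test with Benjamini-Hochberg adjustment over all genes. A gene is written as called where the adjusted p was under 0.05 and the change over 2-fold. Of the 22 members tested, 3 were called lower and 0 higher, and 13.7% of all 12982 genes tested were called lower in this comparison, so the members' share was close to that of all genes.

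VC-T 2 and VC-T 3, the vehicle controls of the same age as T, were like UC in these genes, with Adam4 at 48.7 and 36.4 CPM, Adam6a at 57.4 and 48.5 and Adam6b at 36.8 and 33.0. Against these 2 libraries T was lower by log2 fold changes of -1.66 ± 0.17, -1.56 ± 0.15 and -1.47 ± 0.15, and all 3 genes were called. VC-T 1 lay with T, at 19.5 CPM for Adam4, 20.6 for Adam6a and 16.0 for Adam6b. With VC-T 1 kept among the vehicle controls, edgeR called 0 of 13683 genes, and 6 of 23 members had an unadjusted p under 0.05. In R, Adam4 was at 34.3, 36.1 and 38.6 CPM, Adam6a at 43.3, 40.1 and 46.0 and Adam6b at 27.1, 29.0 and 29.8, above every T library.

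**Figure D3:**
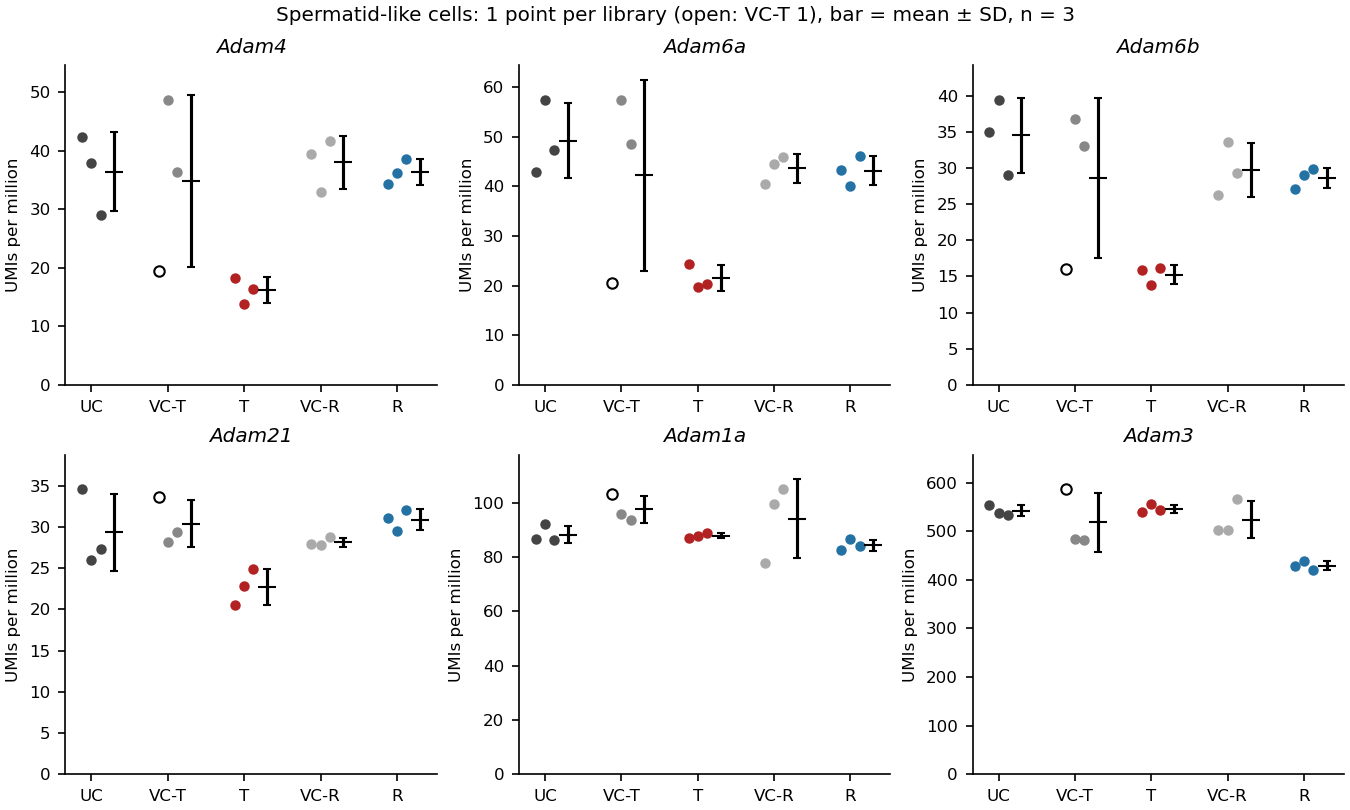
Level in spermatid-like cells (CPM) of Adam4, Adam6a, Adam6b, Adam21, Adam1a and Adam3 in each library of the 5 groups. Bars are the mean ± SD of 3 libraries and the open point is VC-T 1. All 3 T libraries lie below all 3 UC libraries for Adam4, Adam6a, Adam6b and Adam21, and the Adam1a values of T lie among those of UC.

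The spermatid-like cells of T covered an earlier part of pseudotime. The share of them in the later bins, those from bin 24 of 51, was 57.8% ± 3.84 in UC and 18.6% ± 3.50 in T (n = 3 each), and it was 14.9% in VC-T 1 against 68.2% and 55.9% in VC-T 2 and 3. The fixed spermatozoa markers summed to 5618 ± 458 CPM in the spermatid-like cells of UC and 3117 ± 166 in T, and the spermatocyte markers to 404 ± 23.7 and 778 ± 20.5. With the same number of cells taken per library in each pseudotime bin (329 cells per library), the log2 fold changes were 0.13 ± 0.24 for Adam4, -0.16 ± 0.18 for Adam6a and -0.22 ± 0.21 for Adam6b, with adjusted p of 0.787, 0.608 and 0.567. edgeR then called 0 of 21 members, 6 of which had an unadjusted p under 0.05, and 235 of 9380 genes. This comparison rests on fewer cells, and its standard errors are larger.

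The same genes were then compared within single windows. In window 9 Adam4 was at 54.0, 54.1 and 44.3 CPM in UC and 50.0, 39.2 and 55.0 in T, and in window 10 at 66.4, 51.6 and 43.6 and 52.8, 44.2 and 34.6. In window 10 Adam6a was at 63.2, 83.6 and 76.3 CPM in UC and 63.8, 66.3 and 92.3 in T. The UC and T libraries overlapped for both genes in these windows. Adam6b overlapped in window 10 but not in window 9, where it was at 48.6, 55.6 and 41.8 CPM in UC and 34.6, 40.6 and 27.5 in T. These windows held 392 and 418 UC cells and 569 and 231 T cells. In window 10 the T libraries had 29, 8 and 3 UMIs of Adam4 and 35, 12 and 8 of Adam6a. In window 11, where Adam4 peaked, only T 1 had enough cells (27), with 1 UMI of Adam4.

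**Figure D4:**
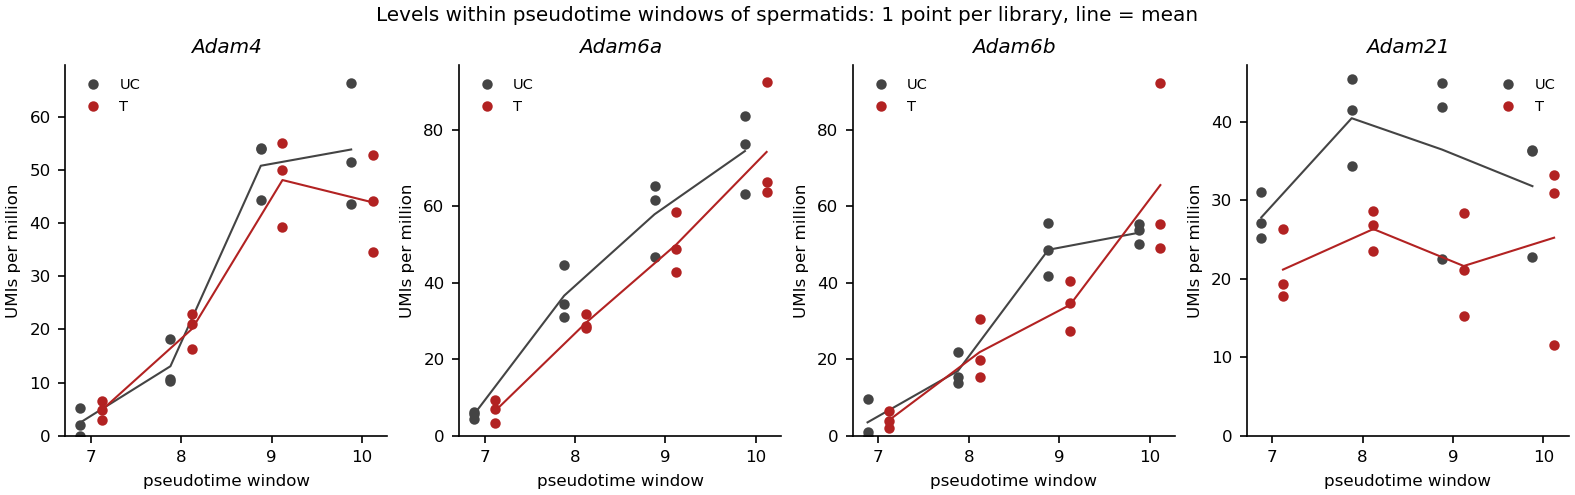
Level in CPM of Adam4, Adam6a, Adam6b and Adam21 in pseudotime windows 7 to 10, for each UC and T library. UC and T overlap for Adam4 in windows 9 and 10, while for Adam21 all T libraries lie below all UC libraries in window 8 and the groups overlap in windows 7, 9 and 10.

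Adam21, of the spermatid group, was lower in T by a smaller amount. In spermatid-like cells it was at 34.6, 26.0 and 27.3 CPM in UC and 20.6, 22.8 and 24.9 in T, with no overlap, and its log2 fold change was -0.61 ± 0.14 (adjusted p = 0.00281), under 2-fold and therefore not called. With matched pseudotime it was -0.73 ± 0.19 (adjusted p = 0.00968). In window 8 its level was 45.5, 41.5 and 34.4 CPM in UC and 23.5, 28.7 and 26.8 in T, with no overlap, while the libraries overlapped in windows 7, 9 and 10. In window 10 Adam21 had 17, 6 and 1 UMIs in the T libraries. The vehicle controls VC-T 2 and 3 were at 28.2 and 29.4 CPM, and against them with matched pseudotime the change was -0.42 ± 0.21 (adjusted p = 0.428). Adam21 was chosen for this account after its values were seen.

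Changes under 2-fold were common among the other testis members of spermatid-like cells. With an adjusted p under 0.05, 10 of the 20 tested fell, the 3 called ones included, and 1, Adam2, rose, at a median log2 fold change over the 20 of -0.22 against 0.045 over all genes, of which 26.8% fell and 23.0% rose at that adjusted p. Adam29 fell by 0.51 on the log2 scale (adjusted p = 0.00196), Adam1a by 0.25 and Adam3 by 0.23, while Adam2 rose from 121, 128 and 134 CPM to 184, 199 and 191 (log2 fold change 0.34 ± 0.08, adjusted p = 0.0022). These small changes depended on the scaling. The fit scales libraries by the trimmed mean of M-values (TMM), and with plain library totals the median over all genes moved from 0.045 to 0.286, that of the testis members to 0.022, and 6 testis members rose and 5 fell at an adjusted p under 0.05, with the same number called. Adam3 was then at 0.01 and Adam1a at -0.01. Of the widely expressed list, Adam15 (0.66 ± 0.34) and Adam22 (0.24 ± 0.16) were tested and neither passed, while both did with library totals (adjusted p = 0.0316 and 0.0232). Without the clusters of low UMI content, Adam15 was called higher in T (adjusted p = 0.0146).

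With matched pseudotime, 5 testis members fell at an adjusted p under 0.05, namely Adam21, Adam3 (-0.26), Adam25 (-0.51), Adam1b (-0.51) and Adam18 (-0.46), and Adam2 was at 0.06 ± 0.10. Adam1b had stood at 0.19 with all cells. Against VC-T 2 and 3 with matched pseudotime (364 cells per library), edgeR put 0 of 22 members past that threshold and 1 at an unadjusted p under 0.05.

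**Figure D5:**
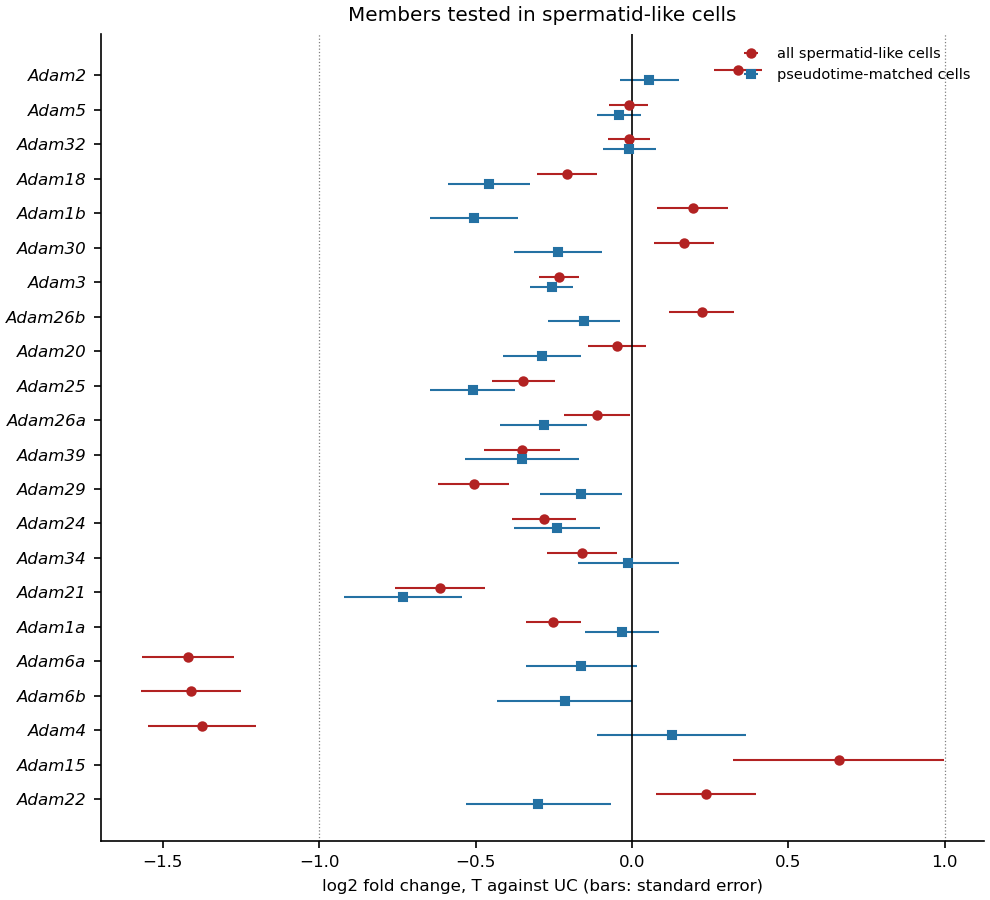
Log2 fold change of T against UC in spermatid-like cells for each tested ADAM member, with its standard error as a bar, for all cells and for the same number of cells per pseudotime bin. Adam4, Adam6a and Adam6b lie near -1.4 with all cells and at 0.13, -0.16 and -0.22 with matched cells, while Adam21 stays at -0.61 and -0.73.

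In spermatocyte-like cells the members of the early group did not pass the test between T and UC. Their log2 fold changes ran from -0.19 ± 0.09 (Adam1b) to -0.05 ± 0.06 (Adam2). Adam3, for example, was at 477, 505 and 524 CPM in UC and 474, 516 and 437 in T. The class differed in make-up, with 1 leptotene and zygotene-like cell among the 6394 spermatocyte-like cells of T and 103 among the 1413 of UC. The part of this in the results of the class was not tested. Of 20 members tested, 1 was called higher, Adam26b, a testase of the spermatid group, and 1.56% of all 12310 genes were called higher. It was at 2.69, 2.06 and 1.47 CPM (9, 6 and 7 UMIs) in UC and 6.47, 4.16 and 3.76 CPM (90, 50 and 19 UMIs) in T, with a log2 fold change of 1.2 ± 0.35 (adjusted p = 0.0482). Adam26b passed the low-count filter only with the T libraries counted. The groups did not overlap, but VC-R reached 5.05, 2.68 and 2.93 CPM, the call was lost in DESeq2 (adjusted p = 0.176), and the spermatid markers in the same cells stood at 94.4 ± 10.3 CPM in UC and 173 ± 76.0 in T, whose part in the result was not tested.

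In spermatogonia-like cells of T, 4 members of the early group were called higher of 7 members tested, where 2.51% of all 7501 genes were called higher. Adam2 and Adam3 passed the low-count filter only with the T libraries counted, so the share among the 7 depends on that filter. With no filter 5 of 31 members were called higher, beside 307 of 21131 genes. Adam2 was at 77.3, 23.5 and 49.1 CPM in UC and 148, 108 and 97.5 in T, Adam3 at 42.2, 23.5 and 67.3 and 161, 99.8 and 94.6, and Adam5 at 70.3, 30.3 and 80.1 and 169, 140.1 and 86.0. All T libraries lay above all UC libraries for these genes and for Adam32. The log2 fold changes were 1.43 ± 0.31 for Adam2, 1.36 ± 0.33 for Adam3, 1.29 ± 0.34 for Adam32 and 1.16 ± 0.31 for Adam5, with adjusted p of 0.0122, 0.0219, 0.0338 and 0.0363. They rest on few molecules, since Adam2 had 11, 7 and 27 UMIs in UC and 115, 51 and 34 in T. DESeq2 called none of them, with 5 of 31 members at an unadjusted p under 0.05, and with 58 matched cells per library 1 was called, Adam3. With those matched cells the log2 fold changes were 1.19 for Adam2, 1.74 for Adam3, 1.33 for Adam32 and 1.25 for Adam5. All 4 were called against VC-T 2 and 3 and in cells with at least 2000 UMIs, and none with all VC-T libraries. Without UC 2 none was called. In the same cells the spermatid markers summed to 144 ± 21.6 CPM in UC and 329 ± 148 in T, while the 7 spermatocyte markers summed to 1989.6 ± 243 and 1491 ± 113. Of these, Sycp1, Sycp3 and Hormad1 were lower in T, and the other 4 were higher, with Shcbp1l at 102 CPM in the summed UC cells and 197 in T, Piwil1 at 42.5 and 93.3, Aurka at 43.5 and 88.9 and Pou5f2 at 9.10 and 23.8. The part of these markers in the calls was not tested. The sheddase genes that mark this stage did not pass the test, with Adam10 at -0.46 ± 0.23 and Adam17 at 0.01 ± 0.29.

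A test of the difference itself, the change in spermatid-like cells against the change in spermatocyte-like cells of the same libraries, passed an adjusted p of 0.05 for 6 of 26 members, near the 24.8% of all 15186 genes. Adam4 (-1.75 ± 0.37), Adam6a (-1.59 ± 0.34), Adam6b (-1.82 ± 0.55) and Adam29 (-1.39 ± 0.40) had a more negative change in spermatid-like cells, and Adam2 (0.46 ± 0.10) and Adam1b (0.46 ± 0.14) a more positive one. The more positive pair depended on the setting. With cells of at least 2000 UMIs, and without T 1, T 2, T 3, UC 1 or UC 2, 0 members passed with a more positive change, and 1 did with DESeq2 size factors (Adam2) and with VC-T 2 and 3 as the control (Adam1b). Over all genes 2047 passed with a more positive and 1713 with a more negative change at a median of 0.103, but 1174 and 1980 at a median of -0.031 with DESeq2 size factors. In the spermatocyte-like cells of UC, Adam4, Adam6a, Adam6b and Adam29 had 3 to 11 UMIs in a library. With matched pseudotime edgeR called 0 of 22 members, 2 of which had an unadjusted p under 0.05.

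At 6 weeks after the last dose, the changes of the 20 testis members tested in spermatid-like cells were under 2-fold, and the member called there in R was the widely expressed Adam28, of 25 members tested and beside 7.79% of all 14535 genes called higher. It was at 1.06, 0.268 and 0.380 CPM (3, 1 and 2 UMIs) in UC and 2.67, 1.87 and 1.87 CPM (19, 17 and 33 UMIs) in R, with a log2 fold change of 1.78 ± 0.52 (adjusted p = 0.00597). The groups did not overlap, the counts are small, and DESeq2 did not call it (adjusted p = 0.065). Adam28 passed the low-count filter through its R values alone. With no filter 2 of 33 members were called higher, beside 1523 of 26384 genes. In R, 75.6% of spermatid-like cells (5282 of 6988) came from clusters of low UMI content, against 14.0% in UC (285 of 2039), and the Sertoli markers summed to 94.1 ± 12.1 CPM in R and 41.6 ± 9.53 in UC.

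Among changes under 2-fold in R against UC, 11 of 20 testis members fell at an adjusted p under 0.05 and 1, Adam34, rose, at a median of -0.29 against 0.038 over all genes, of which 19.3% fell and 22.0% rose. Adam3 was at 555, 538 and 534 CPM in UC and 429, 438 and 420.2 in R, with no overlap (log2 fold change -0.55 ± 0.08, adjusted p = 3.47e-06). Adam34 was at 49.1, 43.5 and 53.1 CPM in UC, 51.5, 54.7 and 55.6 in VC-R and 98.8, 75.9 and 104 in R, with all R libraries above all of UC and VC-R, although VC-T 2 also reached 77.5 CPM (0.72 ± 0.11, adjusted p = 3.08e-06). Without the low-UMI clusters Adam34 was at 0.14 ± 0.10 (adjusted p = 0.503) and Adam3 at -0.21 ± 0.06 (adjusted p = 0.0598), edgeR called 0 of 23 members, and 1 member, Adam6b (-0.53, adjusted p = 0.0444), passed an adjusted p under 0.05, with 6 at an unadjusted p under 0.05. With library totals the median over all genes moved from 0.038 to 0.248. Adam6a and Adam6b were among those that fell (-0.40 ± 0.12 and -0.46 ± 0.13). With 492 cells per library matched in pseudotime they stood at -0.95 ± 0.16 and -0.93 ± 0.17 against UC, and Adam22 at 1.02 ± 0.17 was called higher (adjusted p = 0.000249). Against VC-R with all cells, not matched, Adam6a and Adam6b stood at -0.21 ± 0.12 and -0.26 ± 0.13, past no threshold. In that comparison 6 of 25 members fell and 3 rose at an adjusted p under 0.05, beside 5246 of 14675 genes in either direction. Of the members 1 was called higher, beside 1135 genes. R was not compared with VC-R at matched pseudotime.

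Adam26b was higher in R than in UC in spermatocyte-like and spermatozoa-like cells, but did not pass the test against VC-R in either. In spermatocyte-like cells it was the 1 member called of 25 tested, where 1.67% of all 13648 genes were called higher, at 4.12, 5.90 and 6.33 CPM in R (log2 fold change 1.42 ± 0.32, adjusted p = 0.0125). All R libraries lay above all UC libraries. Against VC-R, the vehicle control of the same age, the change was 0.51 ± 0.30 (adjusted p = 0.887). The spermatid markers in these sums stood at 171 ± 28.0 CPM in R. In spermatozoa-like cells none of 21 members was called, beside 0.664% of all 12207 genes, and 7 had an unadjusted p under 0.05. Adam26b rose there from 13.5, 11.7 and 12.2 CPM in UC to 22.5, 24.8 and 21.2 in R (0.83 ± 0.12, adjusted p = 1.18e-05), and VC-R lay at 22.4, 20.5 and 16.7 and VC-T 2 and 3 at 19.8 and 22.5. The UC libraries were thus the lowest of the 4 groups for this gene. R against VC-R gave 0.03 ± 0.13 (adjusted p = 0.95), and VC-R against UC gave 0.77 ± 0.16 (adjusted p = 0.0231).

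Between the 2 groups without JQ1, VC-R and UC, no member was called by edgeR or by DESeq2. The members tested were 14 in spermatocyte-like cells, then 22 in spermatid-like cells and 20 in spermatozoa-like cells, beside 0.0%, 0.0167% and 0.0389% of all genes called, and 0, 0 and 2 of them had an unadjusted p under 0.05. Adam4, Adam6a and Adam6b in spermatid-like cells of VC-R were at 39.4, 32.9 and 41.7, at 40.4, 44.5 and 46.0 and at 26.3, 33.7 and 29.3 CPM.

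The partners of the sperm ADAMs were taken from a list of 18 genes for folding, processing and sorting. In spermatid-like cells of T, 3 of the 17 tested were called lower and none higher, beside 13.7% of all genes called lower. At an adjusted p under 0.05 6 rose and 7 fell, beside 23.0% and 26.8% of all genes. Calr3, the testis calreticulin that serves ADAM3, was at 178, 186 and 159 CPM in UC and 51.2, 38.0 and 30.4 in T, and at 194, 167 and 192 in R. Prss37, a protease-like protein needed for the maturation of ADAM3, was at 124, 157 and 114 CPM in UC and 22.7, 9.37 and 7.70 in T, and at 125, 124 and 131 in R. All T libraries lay below all UC libraries for both genes, with log2 fold changes of -2.31 ± 0.15 (adjusted p = 1.64e-08) and -3.38 ± 0.26 (adjusted p = 8.17e-08). Pmis2, which acts in the sorting of ADAM3, fell by 1.16 (adjusted p = 1.38e-06), and by 0.91 with library totals. VC-T 1 was again like T, with Calr3 at 45.9 CPM, while VC-T 2 and 3 were at 215 and 162.

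With matched pseudotime the changes of the called partners were smaller, at -0.34 ± 0.15 for Calr3 (adjusted p = 0.147), -0.83 ± 0.25 for Prss37 (adjusted p = 0.0278) and -0.44 ± 0.10 for Pmis2 (adjusted p = 0.00227). The next values are those of all spermatid-like cells, not matched in pseudotime. Clgn, calmegin, a chaperone needed for ADAM pairs, went from 289.5, 296 and 373 CPM in UC to 503, 528 and 515 in T (0.44 ± 0.08, adjusted p = 0.000351). Hspa5, the general chaperone BiP, also rose, by 0.70 ± 0.14, and the spermatid chaperone gene Pdilt fell by 0.69 (adjusted p = 2.07e-06). Values with matched pseudotime are not given here for Clgn, Hspa5 and Pdilt, and the cause of their changes was not tested. In spermatogonia-like cells 12 partners were tested, of which Cmtm2a (1.31 ± 0.26) and Cmtm2b (1.02 ± 0.24) were called higher and Hspa5 (-1.04 ± 0.13) and Tex101 (-1.09 ± 0.17) lower, beside 2.51% and 1.36% of all genes. With matched pseudotime edgeR still called Cmtm2a (1.87), but not Cmtm2b (adjusted p = 0.103) or Hspa5 (-0.80). With all 3 VC-T libraries as the control 0 genes were called. A cluster led by Stra8 gave 46 of the 878 cells of this class in T and 102 of 402 in UC, and its part in the calls was not tested. In spermatocyte-like cells of T 1 of 18 partners rose and 2 fell, all by less than 2-fold, beside 3.85% and 5.94% of all genes. In R Pmis2 was called higher of 18 tested in spermatocyte-like cells, beside 1.67% of all genes (1.18 ± 0.18, adjusted p = 0.00173), which against VC-R was 0.51 (adjusted p = 0.887). In spermatid-like cells of R 1 of 17 partners rose and 8 fell, all by less than 2-fold, beside 22.0% and 19.3% of all genes, and in spermatozoa-like cells 1 of 17 fell, beside 2.38%.

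A second list held 17 regulators of the widely expressed sheddases. In spermatid-like cells of T 1 of the 6 tested was called lower, beside 13.7% of all genes, and this was Timp4, an inhibitor of metalloproteases, with 17, 19 and 39 UMIs in UC, 6, 1 and 0 in T and 85, 95 and 204 in R (T against UC -4.12 ± 0.45, adjusted p = 2.81e-06). Timp2 fell by 0.47 and Tspan5, which belongs to the tetraspanins that guide ADAM10, rose by 0.74, both at an adjusted p under 0.05. In spermatid-like cells of R Frmd8 (0.54 ± 0.18), Pcsk7 (0.58 ± 0.23) and Timp4 (0.64 ± 0.20) rose and Timp2 (-0.39 ± 0.10) fell, all under 2-fold and of 6 tested, beside 22.0% and 19.3% of all genes.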

How the data were processed

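Single-cell RNA libraries of 15 testes were deposited as matrices of UMI counts per gene and cell. The authors made these raw counts with Cell Ranger (3.0.0 in the processing notes, 7.0.0 in the matrix headers) on mm10. Whether intronic reads were counted is not given in the sources used here. Multi-mapping reads are not counted by this tool, which affects close copies.

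Cells with at least 500 genes, 1000 UMIs and under 30% mitochondrial UMIs were kept, and doublets, taken as the top 5.4% of each library by Scrublet score, were removed. Counts were normalised to 10000 per cell and log-transformed, and 2000 variable genes, without ADAM genes and their partners, gave 30 principal components, a 20-neighbour graph and Leiden clusters (resolution 1.2). A cluster was named from fixed markers where at least 3 were found in at least 10% of its cells and their score was over 0.5, a limit chosen after seeing the clusters. Others stayed unnamed. The 5 spermatocyte-like or spermatid-like clusters with UMIs per cell under 0.65 of the library median are the low-UMI clusters. Diffusion pseudotime was split into 51 rank bins, 3 per window, and libraries with under 20 cells in a window were left out. Counts were summed per library and class (at least 10 cells) and tested with edgeR's quasi-likelihood test (TMM, filterByExpr, Benjamini-Hochberg over all genes), called at adjusted p under 0.05 and over 2-fold. Stage differences were called at adjusted p under 0.05. On simulated counts this test recovered 180 of 200 changed genes (90.0%) in 12637 for T against UC in spermatid-like cells, with 13 false calls, and 151 of 200 (75.5%) in 12911 for the interaction, with 5. These were counted at an adjusted p under 0.05 with no fold threshold. The simulation used the same dispersion for every gene and no shift in stage, so it does not give the rates for the calls reported here.

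Alternatives were DESeq2, DESeq2 size factors, no count filter, cells with at least 2000 UMIs, matched pseudotime, other controls, a replicate block, each library left out, library totals and no low-UMI clusters. Named genes were all members that passed the count filter of spermatid-like or spermatocyte-like cells in T against UC, and partners that were called or of highest level; the rest are given by range. The members and lists were chosen with earlier results of these data known. Standard deviations cover the spread between the libraries counted beside them. Those over the control libraries pool groups that differ in age and injection. Standard errors of edgeR fold changes were derived from the log2 fold change and the F statistic of its test. They rest on 3 mice per group unless libraries were left out. Active-site stretches come from GRCm38. Versions were Python 3.11.15, scanpy 1.11.5, leidenalg 0.10.2, biopython 1.88, R 4.3.3, edgeR 4.0.16 and DESeq2 1.42.0.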

Additional observations from a re-analysis of the deposited data

Results flagged for a closer look

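For 6 members the change between T and UC differed between spermatid-like and spermatocyte-like cells, in edgeR's quasi-likelihood test of the interaction with the library as a block. On the log2 scale the change in spermatid-like cells minus that in spermatocyte-like cells was -1.75 for Adam4, -1.59 for Adam6a, -1.82 for Adam6b and -1.39 for Adam29, and 0.46 for Adam2 and 0.46 for Adam1b. Adjusted p ranged from 0.00447 (Adam4) to 0.0296 (Adam6b). Of all 15186 genes tested, 24.8% passed the same threshold, and the median difference over all genes was 0.10, which ran from -0.21 (without T 3) to 0.18 (library totals) over the settings tried. The positive differences of Adam2 and Adam1b did not both pass with DESeq2 size factors, with cells of at least 2000 UMIs, with VC-T 2 and 3 or without T 1, T 2, T 3, UC 1 or UC 2. The share of spermatid-like cells in the later pseudotime bins moved with these values, at 57.8% in UC and 18.6% in T, and with matched pseudotime none of the 6 passed the threshold.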

How the results depend on the processing

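With the same number of cells per pseudotime bin, the change of Adam4 in spermatid-like cells of T turned to 0.13, and the differences between the changes of spermatid-like and spermatocyte-like cells turned to -0.22 (Adam1b), 0.15 (Adam4), 0.45 (Adam6b) and 1.07 (Adam6a). This setting left 0 of the 3 called members in spermatid-like, 0 of 1 in spermatocyte-like and 1 of 4 in spermatogonia-like cells of T, 0 of 1 in spermatocyte-like cells of R, and 0 of the 6 stage differences. The causes were not tested beyond the values given beside these results, and fewer cells enter this setting. With VC-T 2 and 3 as the control, 0 members were called in spermatocyte-like cells, and with matched pseudotime as well 0 in spermatocyte-like and 0 in spermatid-like cells. With all 3 VC-T libraries, 0 were called in spermatogonia-like, spermatocyte-like and spermatid-like cells. With VC-R as the control of R, 0 were called in spermatocyte-like cells.

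DESeq2 called 0 members in spermatogonia-like and 0 in spermatocyte-like cells of T and 0 in spermatid-like cells of R. With no filter on low counts, 2 members were called in spermatocyte-like cells of T, 2 in spermatocyte-like and 2 in spermatid-like cells of R. With cells of at least 2000 UMIs the counts for R were 2 in spermatocyte-like and 0 in spermatid-like cells, with library totals 2 and 2, and without the low-UMI clusters 2 and 0, and 0 in spermatocyte-like cells of T. Library totals, the low-UMI clusters and the matched vehicle control were chosen after seeing the data.

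Leaving out 1 library at a time gave 0 to 4 called members in spermatogonia-like cells of T (0 without UC 2, 1 without T 1, UC 1 or UC 3), 0 to 1 in spermatocyte-like cells (0 without T 1, T 3, UC 1 or UC 2), 3 to 4 in spermatid-like cells, 1 to 2 in spermatocyte-like cells of R (2 without R 1, UC 2 or UC 3), 0 to 2 in spermatid-like cells of R (0 without R 1 or R 3, 2 without UC 3) and 2 to 10 stage differences (10 without T 2, 2 without UC 1 or UC 2).

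Over all genes, the 290 called in spermatogonia-like cells of T became 121 (DESeq2), 477 (no filter), 443 (at least 2000 UMIs), 52 (matched pseudotime), 772 (VC-T 2 and 3) and 0 (all VC-T). The 408 in spermatocyte-like cells became 714 (no filter) and 38 (all VC-T), and the 2210 in spermatid-like cells (432 higher, 1778 lower) became 235, 0 and 89 with matched pseudotime, with all VC-T and with both controls changed, and 2481 with library totals (1052 higher, 1429 lower). For R, 230 in spermatocyte-like cells became 126 (DESeq2), 356 (no filter), 16 (matched), 120 (no low-UMI clusters) and 0 (VC-R), 1147 in spermatid-like cells became 519 (at least 2000 UMIs), 1869 (library totals), 761 (matched) and 30 (no low-UMI clusters), and 81 in spermatozoa-like cells became 6 (DESeq2) and 0 (VC-R). The 3760 stage differences (2047 more positive, 1713 more negative) became 233 with matched pseudotime, 797 and 2544 by direction with at least 2000 UMIs and 878 and 2632 with VC-T 2 and 3, and without 1 library 1719 to 3504 (172 to 2017 more positive, 1487 to 2543 more negative; 2293 without T 3, 1748 without UC 1 and 1719 without UC 2).

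The labels number the libraries 1 to 3 in each group. Deviations of same-numbered libraries correlated at -0.228 to 0.289, so the numbers were not taken as pairs. With the number as a replicate block, 2323 genes and 3 members were called in spermatid-like cells of T, and the members called in each of the 8 other comparisons within 1 stage were as many as without the block. The stage differences, fitted with the library as a block, were not run with it. Depth limits the members below about 1 CPM, such as Adam7, Adam8 and Adam19, for which a change was not detectable.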

Other observations

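The partners and regulators of the ADAM proteins also differed by stage in the control libraries, as levels without a test. In leptotene and zygotene-like cells the general chaperone gene Hspa5 was at 2361 ± 658 CPM, Calr, calreticulin, at 2012 ± 178 and Tex101, a germ-cell surface protein tied to ADAM3, at 1892 ± 179.6, against 109.6 ± 31.7, 142 ± 15.1 and 18.8 ± 2.38 in spermatid-like cells. Calr3, the testis calreticulin, Pdilt and Prss37 were higher in spermatid-like than in pachytene-like cells. Clgn was at 713 ± 47.8 CPM in pachytene-like cells, while Calr3 was at 3.62 there and at 169 ± 23.6 in spermatid-like cells, Pdilt at 3.81 ± 0.753 and 300.0 ± 40.7, and Prss37 at 3.68 ± 1.23 and 141 ± 19.1. Tspan5, of the tetraspanins that guide ADAM10, was at 361 ± 102 CPM in Sertoli-like cells, as was Tspan17 at 215 ± 24.1, and Timp2 was at 1225 ± 171 in Leydig-like cells (n = 4).

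The library VC-T 1, labelled as a vehicle control, entered no main comparison. In its spermatid-like cells Adam2 was at 188 CPM, Adam5 at 475 and Adam32 at 369, above every one of the 8 control libraries. Its spermatogonia-like cells held Adam2 at 183 CPM and Adam3 at 218, also above all 8 control libraries. Its median share of mitochondrial UMIs was 0.713%, beside 0.97% to 1.27% in T and 0.032% to 0.299% in the 8 control libraries.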
